A study of Mus musculus with 4 samples.

Results

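A set of 10 genes of the canonical WNT pathway was examined in proliferating progenitors of the inner ear and in neurons derived from them. They were taken by symbol from the deposited count tables, which list 49997 genes, and comprise 5 effectors (Ctnnb1, Lef1, Tcf7, Tcf7l1 and Tcf7l2) and 5 transcriptional targets (Axin2, Nkd1, Lgr5, Sp5 and Znrf3). All 10 were present in the tables, 9 had counts in every library and passed the filter on low counts, and Sp5 had none. The cells were iMOPs, a wild-type mouse line of immortalized multipotent otic progenitors, so all cultures share 1 line and 1 genotype. The proliferating group (2 libraries) grew in DMEM/F12 with B27, carbenicillin and basic FGF at 20 ng/ml. The neuron group (2 libraries) grew in Neurobasal medium with N21, L-glutamine and 1 µM of K03861, which is known to inhibit the kinase CDK2. Values are given for replicate 1 first and replicate 2 second throughout. The groups therefore differed in medium, growth factor and inhibitor together, and these cannot be told apart.

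In the canonical pathway, WNT ligands bind Frizzled receptors and the coreceptors LRP5 and LRP6, which stops a complex of Axin, APC and GSK3 from marking β-catenin for destruction. β-catenin, the product of Ctnnb1, then enters the nucleus and joins the TCF/LEF proteins on DNA. Many of the genes switched on in this way, such as Axin2, Nkd1 and Znrf3, damp the pathway in turn, and they are widely used as readouts of its activity. In the developing inner ear the pathway is known for roles in otic placode specification, in progenitor proliferation and in the Lgr5-positive supporting cells of the cochlea.

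Depth and cell identity bear on all values that follow. The libraries held 7446361 to 14484011 counts. Of these the 18S row Rn18s-rs5 took 53.3% and 75.0% in the proliferating cultures and 59.4% and 76.1% in the neuron cultures. In both groups its share was thus higher in replicate 2. The TMM factors were 1.64 and 0.713 in the proliferating cultures and 1.26 and 0.678 in the neuron cultures. Without the 18S row, 3474760 and 2595578 counts remained in the proliferating libraries and 3850766 and 3461544 in the neuron libraries. The part of this make-up in the differences between replicate numbers below was not tested. The marker lists differed in how they stood between the groups. The summed level of 12 neuronal markers was 161.9 and 349.5 CPM (counts scaled to the TMM-adjusted library size) in the proliferating cultures, and 202.3 and 365.2 CPM in the neuron cultures. For 10 genes of cycling cells it was 363.2 and 102.5 CPM in the proliferating cultures and 451.5 and 278.7 CPM in the neuron cultures. The fitted log2 fold change was above 0 for all 10, against 6651 of 12783 tested genes. Within both pairs of the same replicate number 8 were higher in neurons, against 3680 of all tested genes, and 0 had groups apart. Of the 10 tested neuronal markers 2, Elavl4 and Map2, had both neuron libraries above both proliferating ones, against 12.9% of all tested genes. In 0 both were below, against 14.5% of all tested genes. Of their fitted log2 fold changes 7 were above 0 and 3 below, the latter including Tubb3 (-0.67) and Stmn2 (-1.13). These markers were named after their values were seen. The summed level of 8 otic progenitor genes was 76.6 and 110.0 CPM in the proliferating cultures and 70.3 and 32.4 CPM in the neuron cultures. Of these genes 3 were tested. Sox9 was lower in both neuron libraries (26.9 and 4.18 CPM) than in both proliferating ones (40.8 and 58.1 CPM), as were 14.5% of all tested genes. Eya1 was higher in both neuron libraries, as were 12.9% of all tested genes. The groups of Sox2 overlapped, at 29.7 and 48.1 CPM in the proliferating cultures and 33.8 and 22.0 CPM in the neuron cultures. Pax2 and Pax8 were at 0 counts in all 4 libraries. The summed level of 10 glial markers was lower in the neuron libraries (43.3 and 17.02 CPM) than in the proliferating ones (87.4 and 141.2 CPM). Of the 6 tested, 3 had groups apart with neurons lower, against 14.5% of all tested genes, and 0 with neurons higher, against 12.9%. The fitted log2 fold change was above 0 for 1 and below for 5. The sums of 8 hair cell and of 8 fibroblast and mesenchyme markers overlapped between groups. That of 6 endothelial and blood markers was at most 2.03 CPM. The part of these markers in the results below was not tested, and in bulk RNA fewer cells of a type and less RNA per cell cannot be told apart.

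Of the 10 genes, Nkd1 differed most between the groups. It was 5.61-fold higher in neurons, whereas the fitted differences of the 8 other genes with counts had log2 fold changes of -0.59 to 0.23. With adjustment over all 12783 tested genes, edgeR's quasi-likelihood test called 0 of the 9 tested members higher and 0 lower, against a background of 0.0% of all genes in each direction. At an unadjusted p-value under 0.05 it found 1 member, Nkd1, and 438 of all genes. DESeq2 called 1 member, Nkd1, among 12 genes higher and 47 lower. Of the 9 fitted differences 2 were above 0 and 7 below, with a median log2 fold change of -0.35 beside 0.024 for all tested genes. The sign of that median rested on 1 library, being 0.060 without proliferating replicate 2.

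**Figure D1:**
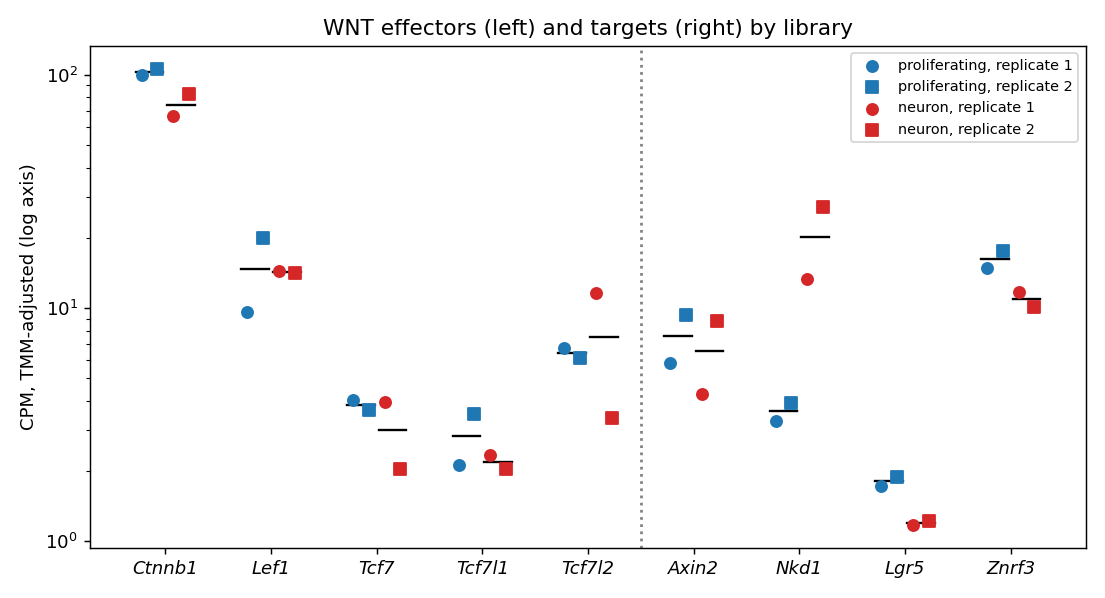
Level of each member in each library, in CPM on a log axis. Circles are replicate 1, squares replicate 2, blue proliferating and red neuron, bars are group means, and Sp5, at 0 counts in all libraries, is not drawn. Both neuron values of Nkd1 (13.4 and 27.1 CPM) lie above both proliferating values (3.29 and 3.93 CPM), and those of Lef1, Tcf7, Tcf7l1, Tcf7l2 and Axin2 overlap.

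The effectors were led by Ctnnb1, which encodes β-catenin (chr9:120933400-120960507, RefSeq coordinates on GRCm38, the assembly of mm10). Its counts were 1211 and 784 in proliferating cells, against 788 and 809 in neurons. These correspond to 99.5 and 106.1 CPM in proliferating cells against 66.3 and 82.5 CPM in neurons, so the groups did not overlap. Proliferating cells averaged 102.8 ± 4.69 CPM, and neurons 74.4 ± 11.4 CPM (SD, n = 2 in each group). The fit gave a log2 fold change of -0.47 (SE 0.43, 95% interval -1.47 to 0.54), with an edgeR adjusted p-value of 0.9998. The gap rested on the scaling. It held with RLE and DESeq2 factors, without a gene filter and without the 18S row. With library size alone and in the authors' RPKM (counts scaled by gene length and library size) the groups overlapped. In RPKM the proliferating libraries stood at 23.1 and 10.7 and the neurons at 11.8 and 7.93. Library size and RPKM both use the library total, which includes the 18S row, so they are not separate checks. On the opposite strand, exons of Ulk4 share 759 bases with those of Ctnnb1. Ulk4 had 10 to 60 counts per library.

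Lef1, a TCF/LEF factor whose own transcription is commonly raised by WNT signals (chr3:131110297-131224357), had nearly equal group means. Its counts were 117 and 147 in the proliferating cultures and 171 and 139 in the neuron cultures, or 9.61 and 19.9 CPM against 14.4 and 14.2 CPM. The proliferating libraries lay on either side of both neuron libraries. Its log2 fold change was -0.043 (SE 0.53, 95% interval -1.27 to 1.19, edgeR adjusted p-value 0.9998), positive within the replicate 1 pair (0.57) and negative within the replicate 2 pair (-0.48). It was 0.59 without proliferating replicate 2 and 0.045 with the replicate number as a block.

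Tcf7, which encodes TCF1 (chr11:52246527-52283383), had 49 and 27 counts in the proliferating cultures and 47 and 20 in the neuron cultures. This gave 4.03 and 3.65 CPM against 3.95 and 2.04 CPM, with 1 neuron library inside the proliferating range and 1 below it. Its log2 fold change was -0.35 (95% interval -1.70 to 0.99), and 0.041 without neuron replicate 2. It was -0.95 when neuron replicate 1 was omitted. Tcf7l1 encodes TCF3, which acts mainly as a repressor of WNT targets (chr6:72626371-72789045). It had 26 counts in each proliferating library and 28 and 20 in the neuron cultures, or 2.14 and 3.52 CPM against 2.36 and 2.04 CPM. The fitted log2 value was -0.35 (95% interval -1.76 to 1.06), and 0.060 without proliferating replicate 2.

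Tcf7l2, which encodes TCF4 (chr19:55741797-55933659), had the largest ratio between its neuron libraries among the effectors. Its counts were 82 and 45 in the proliferating cultures and 138 and 33 in the neuron cultures. The neuron libraries, at 11.6 and 3.36 CPM, stood above and below the proliferating ones, at 6.74 and 6.09 CPM. The fitted log2 value was 0.23 (95% interval -1.28 to 1.73), with 0.77 between the replicate 1 libraries and -0.82 between those of replicate 2, and it was -0.97 when neuron replicate 1 was omitted and 0.85 when neuron replicate 2 was. The edgeR adjusted p-value was 0.9998 for Tcf7, Tcf7l1 and Tcf7l2. All 4 intervals include a log2 fold change of -1, and all but that of Tcf7 include 1, so changes of that size inside the intervals were not excluded.

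The make-up of the TCF/LEF counts followed the replicate number more than the group. Lef1 took 42.7% of the 274 counts of the 4 genes in proliferating replicate 1 (95% Wilson interval 37.0% to 48.6%) and 44.5% of 384 (39.6% to 49.5%) in neuron replicate 1. For replicate 2 its share was 60.0% of 245 counts for proliferating cells (53.8% to 65.9%) and 65.6% of 212 for neurons (58.9% to 71.6%). Tcf7l2 went the other way, which is not a separate observation, since the shares of the 4 genes make up the whole. Its share was 29.9% (24.8% to 35.6%) and 35.9% (31.3% to 40.9%) in the proliferating and neuron libraries of replicate 1, and 18.4% (14.0% to 23.7%) and 15.6% (11.3% to 21.1%) in those of replicate 2. Tcf7 and Tcf7l1 held 9.43% to 17.9% and 7.29% to 10.6%. These shares do not depend on the scaling between libraries. The titles of both replicate 2 libraries also carry the words set 2, and what a set is (a day, a batch or another unit) is not given in the sources used here.

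**Figure D2:**
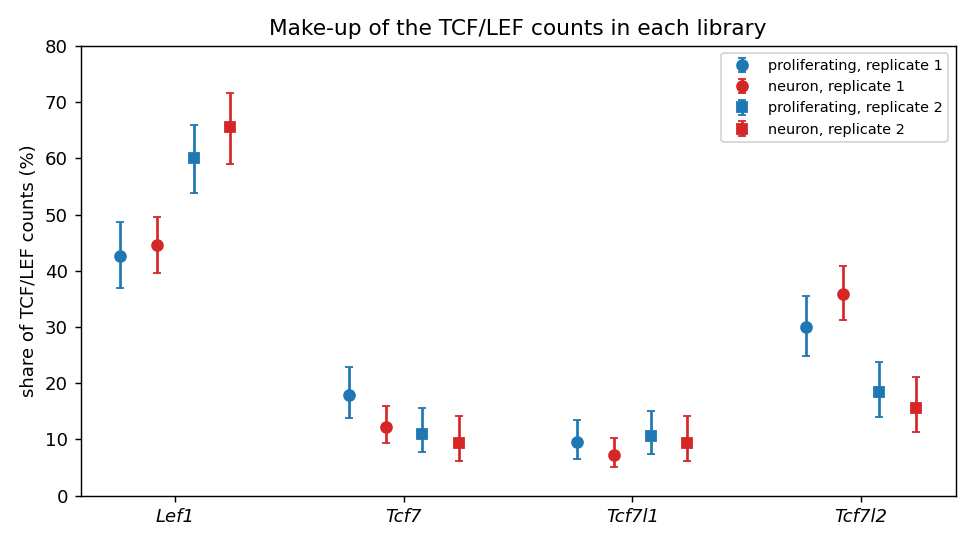
Share of each TCF/LEF gene among the counts of all 4, in percent, with 95% Wilson intervals that cover counting error only. Circles are replicate 1, squares replicate 2, blue proliferating and red neuron. For Lef1 both replicate 2 libraries (60.0% and 65.6%) lie above both replicate 1 libraries (42.7% and 44.5%), and for Tcf7l2 below them.

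Among the targets, Nkd1 stood apart. It encodes Naked cuticle 1, which binds Dishevelled and damps WNT signalling (chr8:88521342-88594887). Its counts were 40 and 29 in the proliferating cultures and 159 and 266 in the neuron cultures, or 3.29 and 3.93 CPM against 13.4 and 27.1 CPM. Both neuron libraries were above both proliferating ones, with means of 3.61 ± 0.45 CPM for proliferating cells against 20.2 ± 9.72 CPM for neurons (SD, n = 2 in each group). Its log2 fold change was 2.49 (SE 0.57, 95% interval 1.16 to 3.82), a 5.61-fold difference with an interval of 2.23 to 14.1. It was 1.96 within the replicate 1 pair and 2.73 within the replicate 2 pair. In edgeR the unadjusted p-value was 0.0029 and the value adjusted over all genes was 0.775, so Nkd1 was not called. The adjusted value was 0.030 in DESeq2 and 0.015 in edgeR without a gene filter, where it passed the threshold, and 0.158 with the replicate number as a block. Over 13 alternatives the adjusted p-value ranged from 0.015 to 1.00 and the log2 fold change from 0.93, on the log2(RPKM + 1) scale that understates changes of low values, to 2.87. It was 1.89 without neuron replicate 2. In the authors' RPKM the order was the same, with 0.496 and 0.258 in proliferating cells and 1.55 and 1.70 in neurons.

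Axin2, a scaffold of the destruction complex and a general feedback target of the pathway (chr11:108917828-108950783), had groups that overlapped. It had 71 and 69 counts in the proliferating cultures and 51 and 86 in the neuron cultures, or 5.83 and 9.34 CPM against 4.29 and 8.77 CPM. Within each group the replicate 2 library was the higher one. The fitted log2 value was -0.21 (SE 0.56, 95% interval -1.52 to 1.10, edgeR adjusted p-value 0.9998), and 0.18 without proliferating replicate 2 and 0.17 without neuron replicate 1. It was -0.82 without neuron replicate 2. With library size alone and in the authors' RPKM both neuron values of Axin2 lay below both proliferating values, at 0.211 and 0.233 RPKM against 0.374 and 0.261 RPKM.

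Znrf3 and Lgr5 act together at the membrane. Znrf3 encodes a ubiquitin ligase that removes Frizzled receptors (chr11:5276329-5444847), and Lgr5 encodes a receptor of R-spondins, the ligands that block that ligase (chr10:115450314-115587780). Znrf3 had 180 and 130 counts in the proliferating cultures and 139 and 99 in the neuron cultures, or 14.8 and 17.6 CPM against 11.7 and 10.1 CPM. Lgr5 had 21 and 14 counts in the proliferating cultures and 14 and 12 in the neuron cultures, or 1.73 and 1.90 CPM against 1.18 and 1.22 CPM. For both genes the groups did not overlap and the neuron libraries were lower. This held with RLE and DESeq2 factors, without a gene filter and without the 18S row. The groups overlapped with library size alone and in RPKM. The log2 fold change was -0.57 for Znrf3 (SE 0.46, 95% interval -1.66 to 0.52) and -0.59 for Lgr5 (SE 0.69, 95% interval -2.21 to 1.04), with edgeR adjusted p-values of 0.9998. For Lgr5 counting error alone is wide, since 14 counts have an exact 95% Poisson interval of 7.65 to 23.5 and 12 counts one of 6.20 to 21.0.

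Sp5, a zinc finger factor of the Sp family and a direct WNT target in many embryonic tissues (chr2:70474923-70477726), had 0 counts in all 4 libraries. A floor of 3 counts in each library corresponds to 0.246 and 0.406 CPM in the proliferating cultures and 0.252 and 0.306 CPM in the neuron cultures, for counting error only. A difference between the groups in Sp5 below these levels was therefore not detectable at this depth.

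**Figure D3:**
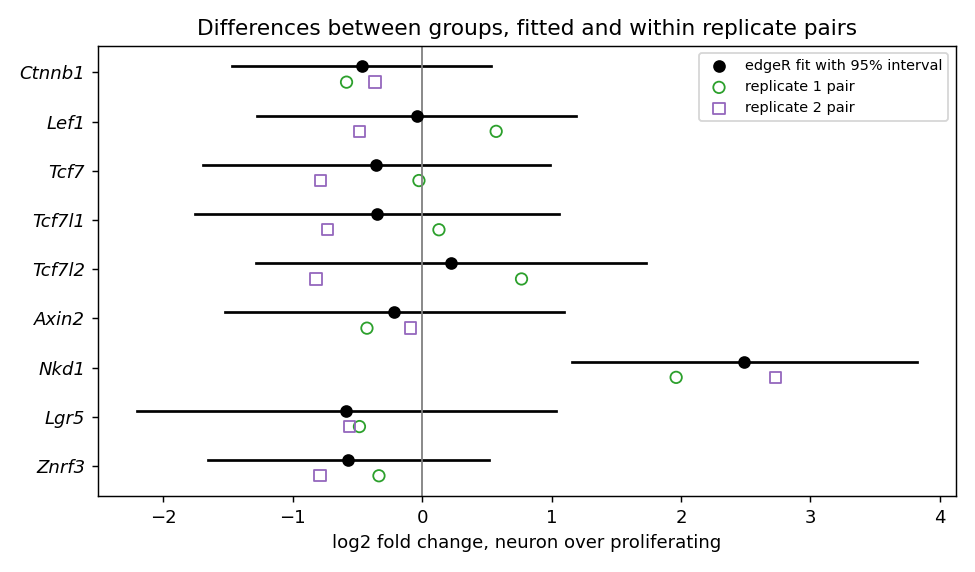
Log2 fold change of neurons over proliferating cells for the 9 members with counts. Black points and lines are the edgeR fit of all 4 libraries with its 95% interval, and open circles and squares are the differences within the replicate 1 and replicate 2 pairs, which have no test. The interval of Nkd1 (1.16 to 3.82) lies above 0 before adjustment for multiple tests, and those of the other 8 include 0.

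The share of genes with groups apart puts these counts in context. Among the tested members 1 (Nkd1) had both neuron libraries above both proliferating ones in CPM, against 12.9% of all tested genes, and 3 (Ctnnb1, Znrf3 and Lgr5) had both below, against 14.5% of all tested genes. In 4 of the 9 members (Lef1, Tcf7, Tcf7l2 and Axin2) the difference between replicate numbers was larger than that between groups, which held for 62.0% of all tested genes. For Tcf7l2 the gap between replicate 2 and replicate 1 was -0.94 on the log2 scale beside a difference of -0.0265 between the group means of log2 CPM. For Axin2 these values were 0.83 and -0.26.

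Ratios within a library, which need no scaling between libraries, were computed for Nkd1 after its values were seen. There were 0.563 counts of Nkd1 for each count of Axin2 in proliferating replicate 1 (exact 95% interval 0.373 to 0.842) and 0.420 in proliferating replicate 2 (0.263 to 0.657). In the neuron replicates the ratio was 3.12 (2.26 to 4.36) and 3.09 (2.42 to 3.99). Relative to Znrf3 it was 0.222 and 0.223 in the proliferating cultures and 1.14 and 2.69 in the neuron cultures. Relative to Ctnnb1 it was 0.033 and 0.037 against 0.202 and 0.329. In each of these ratios the intervals of the neuron libraries lay above those of the proliferating libraries. The intervals cover counting error and not the spread between cultures.

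**Figure D4:**
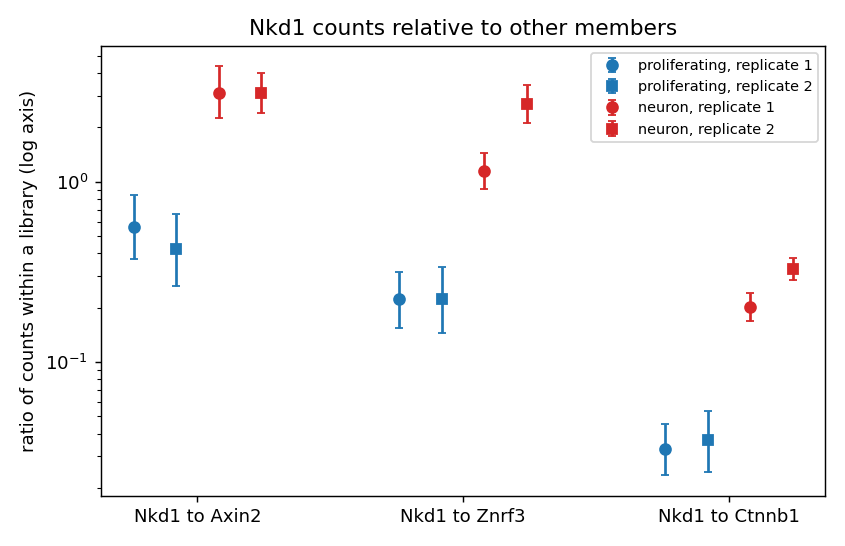
Counts of Nkd1 divided by counts of Axin2, Znrf3 or Ctnnb1 in the same library, on a log axis, with exact 95% intervals for counting error. Circles are replicate 1, squares replicate 2, blue proliferating and red neuron. Relative to Axin2 the neuron libraries stand at 3.12 and 3.09 and the proliferating ones at 0.563 and 0.420.

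Levels of different genes were compared per kilobase of exon in GENCODE M21, in CPM per kilobase. Over the 4 libraries the mean was 17.1 for Ctnnb1, followed by 2.62 for Nkd1, 1.72 for Znrf3, 1.65 for Lef1, 1.302 for Tcf7, 1.28 for Axin2, 0.792 for Tcf7l2, 0.640 for Tcf7l1 and 0.147 for Lgr5. Ctnnb1 thus exceeded every other member in every library (12.8 to 20.4 against at most 5.95). From Znrf3 down to Tcf7l1, neighbours in this order overlapped between libraries. Nkd1 was sixth of the 9 in proliferating cells (0.791) and second in neurons (4.44). The authors' RPKM gives another order for the TCF/LEF genes, because the length behind it was 226116 bases for Tcf7l2 and 84930 for Tcf7, against 8775 and 2625 bases of exon in GENCODE. For Lgr5 the reverse held, at 4711 against 10264 bases.

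The promoter windows of 3 targets with different outcomes are shown next: Nkd1, higher in neurons, Axin2, with overlapping groups, and Sp5, without counts. They are RefSeq sequences of GRCm38.p6, 300 bases around a transcript start each, 5′ to 3′ on the gene's strand, which is the plus strand for all 3. The windows given for Nkd1 and Axin2 lie inside the genes, around starts downstream of the RefSeq gene start. Capitals mark CTTTGA or its reverse complement TCAAAG, the core letters of a TCF/LEF site, searched on both strands.
Nkd1, chr8:88527383-88527682: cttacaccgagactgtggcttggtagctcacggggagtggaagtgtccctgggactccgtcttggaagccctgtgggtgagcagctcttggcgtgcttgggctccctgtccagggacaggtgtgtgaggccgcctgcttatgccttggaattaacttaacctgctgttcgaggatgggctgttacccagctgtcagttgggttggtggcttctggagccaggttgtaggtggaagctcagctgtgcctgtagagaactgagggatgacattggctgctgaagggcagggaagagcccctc
Axin2, chr11:108920099-108920398: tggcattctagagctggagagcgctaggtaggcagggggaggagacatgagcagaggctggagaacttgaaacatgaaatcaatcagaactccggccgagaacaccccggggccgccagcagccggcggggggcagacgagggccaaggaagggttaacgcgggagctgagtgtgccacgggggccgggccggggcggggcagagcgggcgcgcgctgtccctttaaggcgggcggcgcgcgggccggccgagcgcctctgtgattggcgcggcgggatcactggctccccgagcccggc
Sp5, chr2:70474673-70474972: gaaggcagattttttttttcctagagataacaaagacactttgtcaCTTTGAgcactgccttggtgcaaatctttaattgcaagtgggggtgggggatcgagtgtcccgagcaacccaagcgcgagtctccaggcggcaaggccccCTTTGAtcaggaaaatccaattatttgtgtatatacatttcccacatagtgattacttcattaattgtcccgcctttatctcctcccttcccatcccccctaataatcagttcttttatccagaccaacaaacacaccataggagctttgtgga
The window of Sp5 held 2 matches, beginning at -204 and -104 from the start, and those of Nkd1 and Axin2 held 0. Of the 14 windows given for 8 members, 1 other held matches, a downstream start of Lef1 (chr3:131156044-131156343) with 2. Of 27025 genes with a window, 18.2% had at least 1 match. A match is a description of letters in these windows.

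Outside the 10 members, 88 further pathway genes were listed by role, and 48 of them passed the filter on low counts. In edgeR 0 were called in either direction, and 4 had an unadjusted p-value under 0.05, all lower in neurons. Groups were apart in 9 genes with neurons higher (of 48, against 12.9% of all tested genes) and in 10 with neurons lower (against 14.5%). With library size alone the first of these counts was 1. The median log2 fold change was -0.094, beside 0.024 for all tested genes.

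Of 19 ligand genes 14 had a count in at least 1 library and 4 had enough to be tested, with a median of -0.44. Omitting neuron replicate 1 moved that median to -1.04, and omitting neuron replicate 2 moved it to -0.056. Wnt7b, a ligand of the canonical pathway in several epithelia, had 39 and 112 counts in the proliferating cultures and 7 and 0 in the neuron cultures. It passed the filter on low counts only through the proliferating libraries. Both neuron libraries were lower, and the pooled ratio of proliferating to neuron levels was 23.9 (exact 95% interval for counting error 11.3 to 60.5). Such pooled intervals, also given below for Fzd10 and Nkd2, do not cover the spread between cultures. For Wnt7b that spread was 3.20 and 15.2 CPM in the proliferating cultures. The edgeR adjusted p-value of Wnt7b was 0.841, and it was called in DESeq2 (0.0030) and without a gene filter (6.9e-06). It was also called without proliferating replicate 1 (0.033) and without neuron replicate 1 (0.0053), where 1 library stands for a group. Its fitted log2 fold change of -4.82 was -9.51 without neuron replicate 1, which leaves the neuron library at 0 counts, and -3.31 to -5.56 when one of the other libraries was omitted. Wnt2b had 11 and 2 counts in the proliferating cultures and 38 and 7 in the neuron cultures, which overlapped. Wnt3, chosen after its values were seen, had 3 and 1 counts in the proliferating cultures and 11 and 12 in the neuron cultures. It was higher in both neuron libraries but did not pass the filter. Of 6 genes for ligand secretion and R-spondins 1 was tested. This was Wls, the carrier of WNT ligands to the surface, with 230 and 44 counts in the proliferating cultures and 108 and 66 in the neuron cultures. Porcn, the enzyme that acylates the ligands, had 5 to 9 counts per library. The R-spondin genes Rspo1, Rspo3 and Rspo4 had no counts. Rspo2, the other R-spondin gene, had 3 and 0 counts in the proliferating cultures and 0 and 9 in the neuron cultures.

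Of 17 receptor genes 13 were tested, with a median of -0.070. Groups were apart with neurons higher in 4 of the 13, against 12.9% of all tested genes, and with neurons lower in 3, against 14.5%. The 4 higher ones, named here after their values were seen, were Fzd2, Fzd7, Ryk and the coreceptor gene Lrp6, with log2 fold changes of 0.97, 0.39, 0.17 and 0.79. In the authors' RPKM the groups of Fzd7, Ryk and Lrp6 overlapped. Fzd9, Fzd10 and Fzd4, which encode Frizzled receptors, were the 3 lower ones. Fzd9 had 100 and 151 counts in the proliferating cultures and 63 and 50 in the neuron cultures, a log2 fold change of -1.45 (SE 0.58, edgeR adjusted p-value 0.9998). It was -0.64 without proliferating replicate 2. Fzd10 had 15 and 12 counts in the proliferating cultures and 1 and 0 in the neuron cultures. Its log2 fold change was -4.64 (SE 1.33, edgeR adjusted p-value 0.966). The pooled ratio of proliferating to neuron levels was 29.95, with a wide counting interval of 4.94 to 1226. Fzd4 had 21 and 15 counts in the proliferating cultures and 8 in each neuron library (log2 fold change -1.32, SE 0.76). Fzd10 and Fzd4 passed the filter on low counts only through the proliferating libraries. Of the untested receptor genes, named after their values were seen, Fzd6 and Ror2 were higher in both neuron libraries and Lgr6 was lower. Fzd3 was among the 2 receptor genes with the highest RPKM, and its spread between proliferating replicates was wide, with 1055 and 128 counts against 1174 and 584 in the neuron cultures.

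Among the genes that act in the cytoplasm, all 10 genes of the transducers and the destruction complex were tested, with a median of -0.072. Gsk3b, the kinase that marks β-catenin, had 94.0 and 53.5 CPM in the proliferating cultures and 148.3 and 97.3 CPM in the neuron cultures, so the neuron libraries were both higher (log2 fold change 0.73, SE 0.50). In the authors' RPKM the groups of Gsk3b overlapped, as did those of Bcl9 and Apcdd1, described next. Dvl2, a Dishevelled gene, overlapped between groups (0.30, SE 0.53). Of 11 nuclear cofactors 10 were tested, with a median of -0.067. Bcl9, which links β-catenin to Pygopus, had 22.9 and 14.3 CPM in the proliferating cultures and 38.4 and 41.0 CPM in the neuron cultures, a log2 fold change of 1.09 (SE 0.47, edgeR adjusted p-value 0.9998). It was 0.45 (SE 0.57) for Cby1, an inhibitor of β-catenin, and 0.084 (SE 0.52) for Tle5, a short relative of the Groucho corepressors. The latter was negative with library size alone (-0.13).

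Of 14 antagonists of the pathway, most of them secreted, 5 were at 0 counts and 3 were tested. Apcdd1, a membrane inhibitor of the pathway and itself a WNT target, had 10.9 and 8.53 CPM in the proliferating cultures and 15.4 and 20.7 CPM in the neuron cultures. Its log2 fold change was 0.89 (SE 0.48, edgeR adjusted p-value 0.9998). Sfrp2, a secreted decoy for ligands, overlapped between groups, at 8.13 and 5.01 CPM against 8.16 and 6.73 CPM. Its log2 fold change of 0.17 (SE 0.50) was -0.19 with library size alone.

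Of 11 other genes reported as WNT targets in various tissues 7 were tested, 0 were called in edgeR, and 3 of the fitted values were above 0 and 4 below, with a median of -0.44. Groups were apart with neurons lower in 4 of the 7, against 14.5% of all tested genes, and with neurons higher in 0, against 12.9%. Ccnd1, which encodes the G1 cyclin D1, had 99 and 464 counts in the proliferating cultures and 61 and 47 in the neuron cultures. Its log2 fold change was -2.83 (SE 0.90, edgeR adjusted p-value 0.9998), and it was -0.65 within the replicate 1 pair and -3.66 within the replicate 2 pair. Ccnd1 was called without a gene filter (0.0022) and without proliferating replicate 1 (0.0067, log2 fold change -3.69), and its log2 fold change was -0.69 when proliferating replicate 2 was omitted. Cd44, a hyaluronan receptor, had 43.1 and 123.7 CPM in the proliferating cultures and 24.1 and 41.1 CPM in the neuron cultures (-1.36, SE 0.62). Omitting proliferating replicate 2 gave -0.39 for Cd44, and omitting proliferating replicate 1 gave -1.96. Myc had 1151 and 950.0 CPM in the proliferating cultures and 400.6 and 675.2 CPM in the neuron cultures (-0.97, SE 0.42). iMOP cells are known to have been immortalized with Myc, so reads of a transgene and of the endogenous gene cannot be told apart here. Nkd2, the paralog of Nkd1, was chosen after its values were seen. It had 12 and 10 counts in the proliferating cultures and 4 and 3 in the neuron cultures, too few to be tested, with a pooled ratio of proliferating to neuron levels of 3.49 (exact 95% interval for counting error 1.44 to 9.66).

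**Figure D5:**
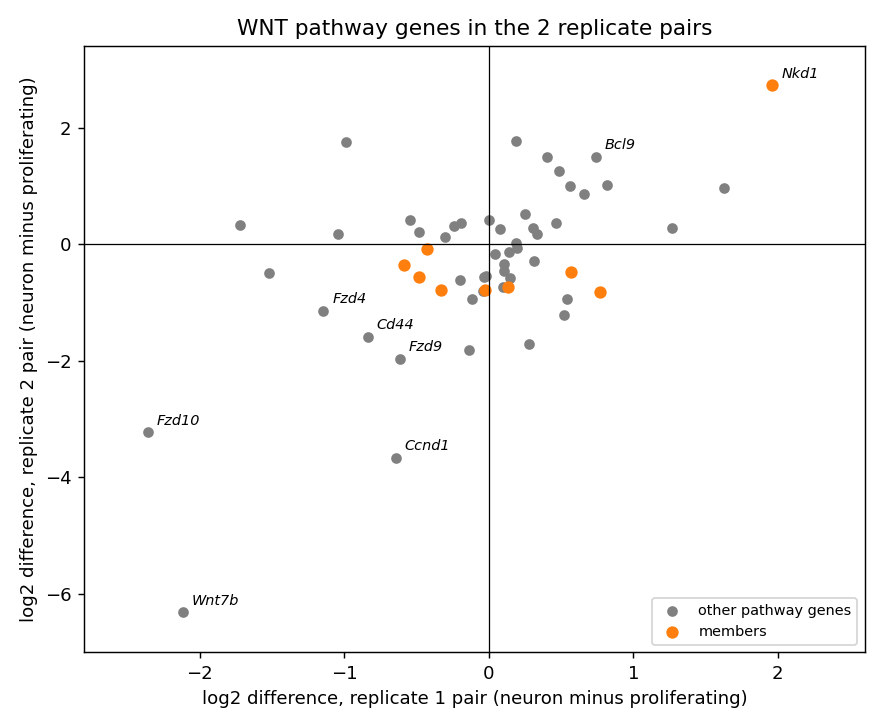
Difference between neuron and proliferating libraries on the log2 CPM scale (prior count 2) within the replicate 1 pair (x axis) and the replicate 2 pair (y axis), for the 57 tested WNT pathway genes. Orange points are the members and grey points the other genes. Nkd1 is at the upper right (1.96 and 2.73), and Wnt7b (-2.12 and -6.31) and Fzd10 (-2.36 and -3.23) are at the lower left.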

How the data were processed

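Per the submitters' processing notes, HISAT2, SAMtools, featureCounts, DESeq2 and the build mm10 were used. The strand setting, the annotation and the treatment of reads with several matches are not given in the sources used here. The authors deposited raw counts per gene symbol and RPKM values for each library. In 8095 genes with at least 20 counts per library, the deposited RPKM equalled the count divided by the column total and by 1 length per gene (within 0.1% across libraries).

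Groups and replicate numbers come from the titles, which call the libraries biological replicates. The main test was edgeR 4.0.16 (R 4.3.3) with TMM factors, filterByExpr (minimum count 10, minimum total 15), and the two-sided tests of glmQLFit and glmQLFTest, whose only term was the group. It was fitted on 12783 genes with Benjamini-Hochberg adjustment and a threshold of 0.05. SE was taken from the F statistic and intervals are approximate. Differences within a replicate pair use log2 CPM with a prior count of 2. The replicate numbers were taken to pair the libraries, since both replicate 2 titles name set 2; deviations from the group means correlated across genes at r = 0.33. Alternatives were RLE factors, library size alone, DESeq2 1.42.0, 2 other gene filters, the replicate block, limma-trend (3.58.1) on log2 RPKM with a pseudocount of 1 or of 0.1, omission of the 18S row, and omission of each library. Shares have Wilson intervals and ratios exact binomial ones. Python 3.11.15 with scipy 1.17.1 was used for these. The edgeR fit was tested on simulated counts.

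All members could be named. Other pathway genes were named if called, if groups were apart with a log2 fold change of at least 1 in size, or if among the 2 highest RPKM of their list. Members and lists were chosen with earlier results of these data known. Aes was matched through its current symbol Tle5. A planned comparison of the TCF/LEF proteins was not run.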

Additional observations from a re-analysis of the deposited data

How the results depend on the processing

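Where a library was left out, its group had 1 library, which is assumed to vary like the other group. Genes called in all were 0 higher and 0 lower, against 12 and 47 in DESeq2 and 41 and 122 without a gene filter. The count of lower genes was 2 with library size alone, 1 on log2(RPKM + 1), 2 on log2(RPKM + 0.1) and 3 with the replicate block, where 790 genes had an unadjusted p-value under 0.05 against 438. With a library left out it was 3 to 29 higher and 11 to 84 lower. The median of all genes moved by -0.29 with library size alone and by -0.17 on log2(RPKM + 0.1). The filter on CPM kept the same number of genes and gave the same counts.

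Nkd1 kept its direction in all 13 alternatives and was called in 2, DESeq2 (2.49) and no gene filter (2.53). The replicate block changed no member's call. The sign of Lef1 reversed without a gene filter (0.0070) and with the replicate block (0.0452). Leaving out a library gave -0.51 to 0.59 for Lef1, -0.95 to 0.041 for Tcf7, -0.71 to 0.060 for Tcf7l1, -0.97 to 0.85 for Tcf7l2 and -0.82 to 0.18 for Axin2. Ctnnb1, Lgr5 and Znrf3 kept their sign throughout. Tle5 reversed with library size alone (-0.13), log2(RPKM + 1) (-0.10) and log2(RPKM + 0.1) (-0.12), and Sfrp2 likewise (-0.19, -0.052 and -0.022). Leaving out a library then gave -0.32 to 0.58 for Tle5, -0.11 to 0.54 for Sfrp2, -1.24 to 0.38 for Wls, -0.11 to 2.16 for Fzd3 and -0.10 to 0.72 for Dvl2.

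Members apart and lower were 1 (Axin2) with library size alone and on both RPKM scales, in place of Ctnnb1, Znrf3 and Lgr5. Other pathway genes apart and higher were also 1 in each. These settings all scale by the total count of a library, so they are not separate checks. With a library left out the ranges were 1 to 2 members higher and 4 to 6 lower, and 14 to 21 other genes higher and 12 to 23 lower, where fewer libraries make separation easier. The median of the members was then -0.55 to 0.060, of the receptors -0.10 to 0.10, of the transducers -0.21 to 0.32, of the cofactors -0.44 to 0.51, of the ligands -1.04 to -0.056, of the antagonists 0.051 to 0.54 and of the other targets -0.72 to -0.21. With library size alone the medians were -0.31 (receptors), -0.31 (transducers), -0.19 (antagonists) and -0.63 (other targets). On log2(RPKM + 0.1) the receptors were at -0.28 and on log2(RPKM + 1) the antagonists at -0.052. The cause of these differences was not tested. Depth limited Lgr5 most among the tested members, with 12 to 21 counts per library.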
